A study of Mus musculus with 12 samples.

Results

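The 10 genes described here make fatty acids from acetyl-CoA or steer that work: the regulator gene Srebf1, the enzyme genes Acly, Me1, Acaca, Fasn, Elovl6, Scd1, Scd2 and Scd4, and Thrsp. They were taken by symbol from a table of read counts over 21959 gene IDs, each symbol matched 1 ID, and all 10 were among the 12384 genes tested. The counts come from poly-A RNA of heart ventricles of 12 chow-fed male mice at an age of 7 weeks. A cardiac-specific knockout of Vps13c (Vps13c-cKO, 6 mice) was set against wild type (WT, 6 mice), and the question is which ventricular transcripts differ once Vps13c, a bridge-like protein that moves lipids between organelles, is depleted. The labels number each mouse separately. They name neither the Cre driver nor the deleted exons, and do not say whether WT mice carried floxed alleles.

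Lipogenesis turns citrate exported from mitochondria into palmitate and then into longer and unsaturated fatty acids, using NADPH for each reducing step. Its genes are driven mainly by the transcription factor SREBP1, which is cut free from its membrane anchor in response to insulin. ChREBP, the liver X receptors and, for several genes, thyroid hormone also drive them. The pathway is best known from liver and fat. The adult heart burns fatty acids rather than making them, and the malonyl-CoA made by acetyl-CoA carboxylase is known in heart muscle chiefly as a brake on fatty acid entry into mitochondria.

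Libraries held 12484523 to 14188716 gene counts in Vps13c-cKO and 13348018 to 15562942 in WT. Levels are in CPM, read counts scaled to library size with TMM factors. The targeted gene Vps13c had 16.3 to 20.3 CPM in Vps13c-cKO ventricles and 54.6 to 68.6 CPM in WT ventricles, so each library matched its label. One library stood apart. In Vps13c-cKO replicate 1 the summed level of 10 hepatocyte markers was 377 CPM, against 1.06 to 3.20 CPM in each of the other 11 libraries, and each of the 10 markers was highest there. Albumin (Alb) had 239.7 CPM in that library and at most 0.777 CPM in any other. Liver is known for high levels of lipogenic transcripts, and the 3 genes called below, with Scd1, are therefore also given without this library. Its omission left the counts at 3 of the 10 genes higher and 0 lower.

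Of the 10 genes, Thrsp, Fasn and Scd2 rose in Vps13c-cKO ventricles by edgeR's quasi-likelihood test at a Benjamini-Hochberg adjusted p under 0.05, and the other 7 did not pass. Among all genes tested, 10.7% were called in either direction, 5.65% as higher and 5.10% as lower. None of the 10 was called lower by edgeR, DESeq2 or limma-voom, and 0 had an unadjusted p under 0.05 in the lower direction with any of the 3 tools. The median log2 fold change of the 10 genes was 0.31, beside 2.75e-05 over all tested genes. A positive value was found for 9 of the 10, beside 6194 of the 12384 tested genes. Those of Acaca and Me1 were close to 0 and turned sign in some fits that left out 1 library. The 10 genes were chosen with earlier results of these data known. The genes were not evenly involved. Thrsp was 2.59-fold higher, Fasn 1.40-fold and Scd2 1.30-fold, while the 95% intervals of Srebf1, Acly, Me1 and Acaca lay between 0.851-fold and 1.16-fold.

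**Figure D1:**
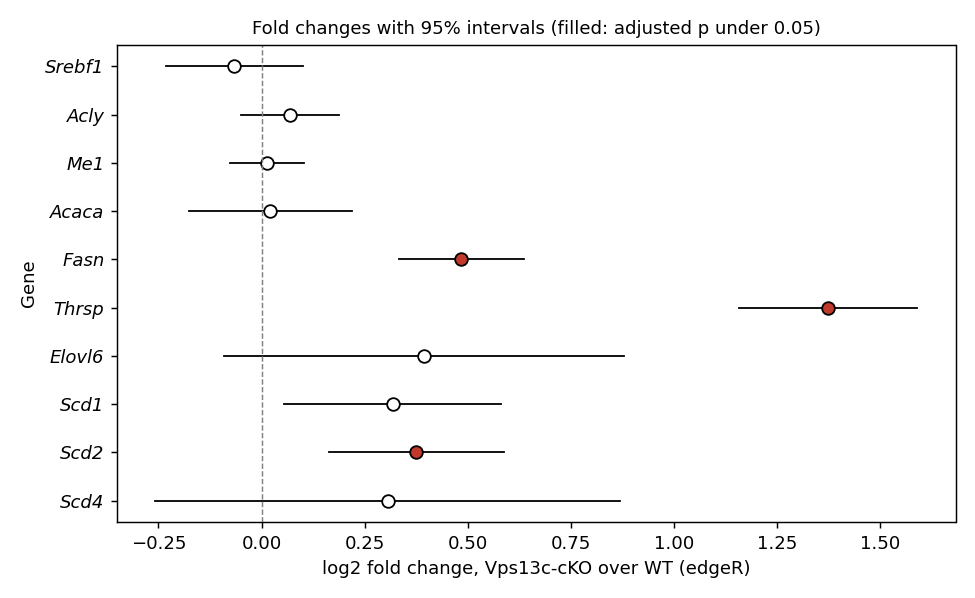
Log2 fold changes (Vps13c-cKO over WT, x axis) of the 10 lipogenic genes (y axis), with 95% confidence intervals from edgeR as lines and filled circles for an adjusted p under 0.05. Thrsp stands at 1.37, Fasn at 0.48 and Scd2 at 0.38, and the intervals of Srebf1, Acly, Me1 and Acaca lie around 0.

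Srebf1 encodes SREBP1, the transcription factor that switches on the other genes. Its level was 16.2, 18.0 and 20.5 CPM (lowest, median and highest of 6) in Vps13c-cKO ventricles and 16.2, 19.1 and 22.3 CPM in WT ventricles. The groups overlapped over almost their whole range. The log2 fold change was -0.07 ± 0.08 (SE, adjusted p = 0.685, edgeR), with a 95% interval of -0.23 to 0.10. Exons of Srebf1 and Rai1 overlap on opposite strands over 109 bases (1.93% of the Srebf1 exons), where reads cannot be assigned without strand. The counts do not separate the SREBP1a and SREBP1c transcripts, and mRNA does not report how much SREBP1 protein is cut free.

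Acly encodes ATP citrate lyase, which splits cytosolic citrate to give acetyl-CoA. Its level was 37.9, 40.3 and 45.4 CPM in Vps13c-cKO ventricles and 33.5, 39.5 and 42.8 CPM in WT ventricles, and the groups overlapped. The difference (log2) was 0.07 ± 0.06 (SE, 95% interval -0.05 to 0.19, adjusted p = 0.516, edgeR).

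Me1 encodes cytosolic malic enzyme, a source of NADPH for the synthase. Its level was 149, 164 and 175 CPM in Vps13c-cKO ventricles and 152, 159 and 174 CPM in WT ventricles. The ranges all but coincided. On the log2 scale the difference was 0.01 ± 0.04 (SE, 95% interval -0.08 to 0.10, adjusted p = 0.903, edgeR), the narrowest interval of the 10 genes.

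Acaca encodes acetyl-CoA carboxylase 1, which makes the malonyl-CoA that the synthase extends. Its level was 12.2, 13.4 and 15.0 CPM in Vps13c-cKO ventricles and 10.9, 13.4 and 16.2 CPM in WT ventricles, so the knockout values lay inside the WT range. The log2 fold change was 0.02 ± 0.09 (SE, 95% interval -0.18 to 0.22, adjusted p = 0.930, edgeR). Acaca and Me1 share sequence with other annotated genes: 30.4% of the 50-base stretches in Acaca transcripts and 22.9% of those in Me1 also occur in another gene, chiefly predicted genes such as Gm5182 and Gm7049. The sources used here do not say how the counting treated reads from those stretches.

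Fasn encodes fatty acid synthase, the multienzyme that builds palmitate. Its level was 23.6, 24.8 and 31.4 CPM in Vps13c-cKO ventricles and 16.7, 18.5 and 21.1 CPM in WT ventricles. Every knockout ventricle lay above every WT ventricle, and the highest, Vps13c-cKO replicate 5, was well clear of the other 5. Groups did not overlap for 2 of the 10 genes, Fasn and Thrsp, and for 4.93% of all genes tested (2.75% with the knockout mice above, 2.18% with them below). The log2 fold change of Fasn was 0.48 ± 0.07 (SE, adjusted p = 0.000124, edgeR), a 1.40-fold difference with a 95% interval of 1.26 to 1.55. Without the library that carried hepatocyte transcripts it was 0.50 (adjusted p = 0.000269), so the difference was as large without that library.

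Thrsp, also called Spot 14, encodes a small acidic protein without known enzyme activity that is induced by thyroid hormone and carbohydrate feeding in liver and fat and accompanies high rates of fatty acid synthesis there. Its level was 42.1, 50.4 and 56.4 CPM in Vps13c-cKO ventricles and 12.7, 19.1 and 23.8 CPM in WT ventricles. The lowest knockout ventricle lay well above the highest WT ventricle. The log2 fold change was 1.37 ± 0.10 (SE, adjusted p = 1.44e-08, edgeR), a 2.59-fold difference with a 95% interval of 2.23 to 3.01, and Thrsp ranked 10 by p among the 12384 tested genes. The counts behind it were 530 to 799 reads per Vps13c-cKO library and 174 to 321 per WT library. Without the library that carried hepatocyte transcripts the log2 fold change was 1.41.

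**Figure D2:**
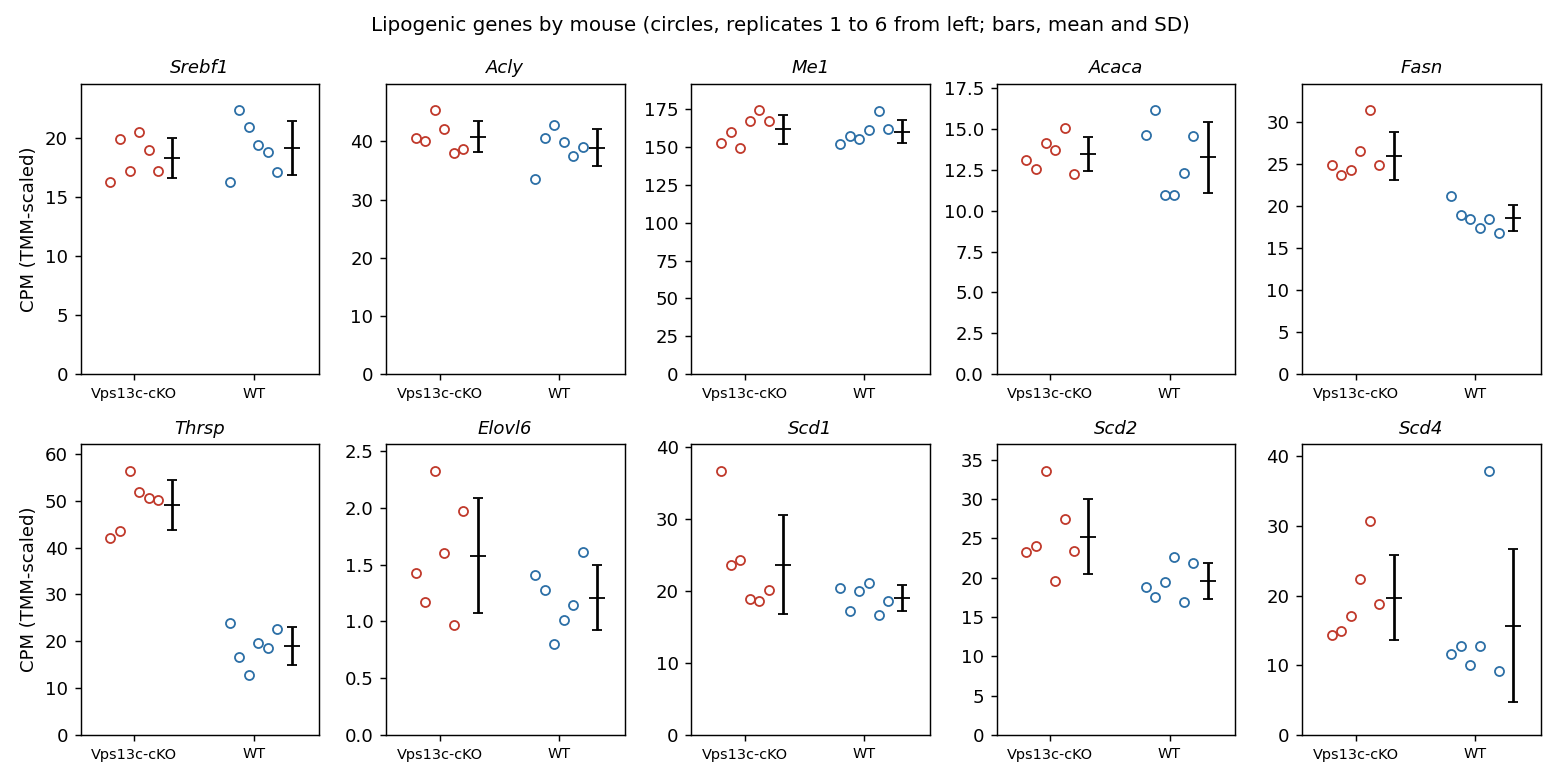
CPM (y axis, from 0, TMM-scaled) of the 10 lipogenic genes in each mouse, one circle per mouse with replicates in order from the left, Vps13c-cKO left of WT; bars give the mean and SD (n = 6 each). Thrsp and Fasn separate the groups completely, Scd4 has 1 high WT mouse at 37.9 CPM and Scd1 has 1 high Vps13c-cKO mouse at 36.6 CPM.

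The DNA before the transcription starts of Thrsp and Fasn is shown because both genes separated the groups, and that of Acly because its level did not differ while its window also holds the CCAAT box, the motif bound by NF-Y, a common partner of SREBP1. The windows are RefSeq sequence on the build GRCm38.p6 and run from 250 bases before to 50 bases after the start, on the gene's own strand, 5′ to 3′. Capitals mark CCAAT, or ATTGG where the box lies on the other strand. The windows are chr7:97417501-97417800 for Thrsp, chr11:120824498-120824797 for Fasn and chr11:100527951-100528250 for Acly, each on the minus strand.
Thrsp: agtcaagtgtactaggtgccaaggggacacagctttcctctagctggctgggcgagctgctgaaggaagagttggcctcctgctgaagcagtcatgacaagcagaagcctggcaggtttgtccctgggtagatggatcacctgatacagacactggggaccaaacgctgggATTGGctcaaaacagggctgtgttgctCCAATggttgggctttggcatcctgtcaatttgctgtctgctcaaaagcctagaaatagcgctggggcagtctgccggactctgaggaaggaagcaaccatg
Fasn: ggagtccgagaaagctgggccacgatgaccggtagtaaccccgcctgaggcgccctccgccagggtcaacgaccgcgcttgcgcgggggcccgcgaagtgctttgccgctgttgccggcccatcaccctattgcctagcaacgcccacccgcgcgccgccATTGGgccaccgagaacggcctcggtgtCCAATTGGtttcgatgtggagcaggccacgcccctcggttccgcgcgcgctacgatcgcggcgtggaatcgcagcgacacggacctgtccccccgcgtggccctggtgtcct
Acly: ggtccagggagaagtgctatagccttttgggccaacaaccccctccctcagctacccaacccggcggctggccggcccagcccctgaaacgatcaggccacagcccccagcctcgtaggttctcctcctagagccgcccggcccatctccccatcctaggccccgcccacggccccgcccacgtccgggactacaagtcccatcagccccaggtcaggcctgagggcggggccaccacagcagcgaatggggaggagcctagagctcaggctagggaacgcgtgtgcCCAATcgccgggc

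The Thrsp window holds CCAAT boxes that begin 79 and 52 bases before the start, the first on the other strand. The Fasn window holds them 90, 62 and 59 bases before the start, and the last, on the other strand, overlaps the one before it. In the Acly window the single box lies after the start. Genes that did not pass the test also had the box before the start. It lay 208 bases before it in a window of Me1, and 166 and 30 bases before it in separate windows of Srebf1. CCAAT on either strand occurs in 37.4% of 32851 RefSeq mouse promoter windows of the same length, and CCAAT on both strands, as in Thrsp and Fasn, in 5.80%. The count on both strands was made beside the 6 motifs searched. It is set beside windows shown because their genes separated the groups, so it tests nothing about them. The letters TCACNCCAC, a core of the sterol regulatory element, occur in 1.24% of the windows, the E-box CACGTG in 7.15% and TATAAA in 13.6%, each searched on both strands. None of these was present in the windows found for 8 of the 10 genes. Scd1 and the called gene Scd2 had no window and were not searched. The half-site AGGTCA, found in 16.3% of all windows, was present in those of Elovl6 and Acly. The GC box GGGCGG, found in 35.7% of all windows, was present in windows of Acly, Me1 and Srebf1. A match describes letters only, and the counts carry no measurement of factor binding.

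Thrsp lies on chromosome 7, where 18.5% of tested genes were called in either direction and 9.63% as higher, against the 10.7% and 5.65% of all chromosomes. The part of chromosome 7 in the result was not tested beyond the genes beside it. Of the 5 tested genes on each side of Thrsp, 1 passed the test, Ndufc2, a subunit gene of respiratory complex I, which fell by 0.20 ± 0.04 (log2, SE, adjusted p = 0.00131, edgeR), and the 10 log2 fold changes ran from -0.20 to 0.32. Beside Fasn, on chromosome 11, 1 of 10 genes passed, the lactate transporter gene Slc16a3 with 0.66 ± 0.21 (adjusted p = 0.0493), and the 10 values ran from -0.12 to 0.66. Slc16a3 averaged 1.56 CPM in Vps13c-cKO and 0.968 CPM in WT.

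Elovl6 encodes the elongase that extends palmitate to stearate. Its level was 0.968, 1.52 and 2.33 CPM in Vps13c-cKO ventricles and 0.803, 1.21 and 1.61 CPM in WT ventricles, and the groups overlapped. It was counted from 13 to 33 reads per Vps13c-cKO library and 11 to 21 per WT library. At this depth the log2 fold change was 0.39 ± 0.23 (SE, 95% interval -0.09 to 0.88, adjusted p = 0.329, edgeR), and a difference as large as that of Fasn lay inside the interval.

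The stearoyl-CoA desaturases put the first double bond into stearate and palmitate. Scd1, Scd2 and Scd4 lie together on chromosome 19. Scd2 had 19.5, 23.8 and 33.6 CPM in Vps13c-cKO ventricles and 16.9, 19.1 and 22.6 CPM in WT ventricles. Of the knockout ventricles, 5 of 6 lay above every WT ventricle. The difference on the log2 scale was 0.38 ± 0.10 (SE, adjusted p = 0.0198, edgeR), or 1.30-fold, with a 95% interval of 0.16 to 0.59 on the log2 scale. The call was close to the threshold: it was lost without Vps13c-cKO replicate 3 (0.27, adjusted p = 0.0512) and without WT replicate 2 (0.34, adjusted p = 0.0518), and kept without the library that carried hepatocyte transcripts (0.40, adjusted p = 0.0227).

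Scd1, the form known from liver and fat, had 18.6, 21.8 and 36.6 CPM in Vps13c-cKO ventricles and 16.7, 19.3 and 21.0 CPM in WT ventricles. Its highest value belonged to Vps13c-cKO replicate 1, the library with hepatocyte transcripts, and the next value was 24.2 CPM. The fitted log2 fold change was 0.32 ± 0.13 (SE, adjusted p = 0.119, edgeR) and 0.15 (adjusted p = 0.302) without that library. The part of the hepatocyte transcripts in the Scd1 value was not tested further.

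Scd4, a form first described in heart, had 14.4, 17.9 and 30.8 CPM in Vps13c-cKO ventricles and 9.12, 12.2 and 37.9 CPM in WT ventricles. WT replicate 5 held the highest value of all 12 mice, while the other 5 WT ventricles lay at 9.12 to 12.8 CPM, below every knockout ventricle. With all 12 mice the log2 fold change was 0.31 ± 0.27 (SE, 95% interval -0.26 to 0.87, adjusted p = 0.548, edgeR). Without WT replicate 5 it was 0.80 ± 0.16 (adjusted p = 0.00165), so 1 library decided the call. The same mouse had the highest WT level of 9 of the 15 tested genes on a list of PPAR targets induced by fasting, a look taken after its Scd4 value was seen. WT replicates 2 and 3 were highest for 3 each. In Vps13c-cKO the largest such count was 5 of 15, in replicate 5. Irs2, an insulin receptor substrate gene induced by fasting, had 26.5 CPM in it against 9.27 to 15.3 CPM in the other WT mice. Pdk4, the kinase gene that shuts off pyruvate dehydrogenase, had 2909 CPM against 1794 to 2261 CPM. The sources used here do not state whether mice were fed or fasted at collection, and the part of feeding in the Scd4 value was not tested.

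Scd3 was all but silent, with 0 to 9 reads per library. Shares are given of the summed reads of Scd1, Scd2, Scd3 and Scd4. In Vps13c-cKO ventricles Scd1 held 34.4% ± 8.45, Scd2 36.6% ± 4.91 and Scd4 28.8% ± 8.26. In WT ventricles Scd1 held 35.6% ± 6.32, Scd2 36.7% ± 6.92 and Scd4 27.2% ± 12.8 (SD, n = 6 each). The means of the groups differed by less than 1 SD for each of the 3 genes, but single outlying mice widened those SDs. The WT mean of Scd4 was raised by replicate 5. In the other 5 WT mice Scd4 took 18.3% to 26.8%, beside 19.3% to 40.0% in Vps13c-cKO. Scd1 took 36.2% to 40.3% in the same 5 WT mice, and 24.1% to 37.6% in the Vps13c-cKO mice other than replicate 1. The largest departures were Scd1 at 49.2% in Vps13c-cKO replicate 1 and Scd4 at 52.7% in WT replicate 5. Between 3.97% and 5.54% of the 50-base stretches of each of the 3 genes also occur in another gene, mostly another desaturase, so a small share of their reads could be split between them.

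**Figure D3:**
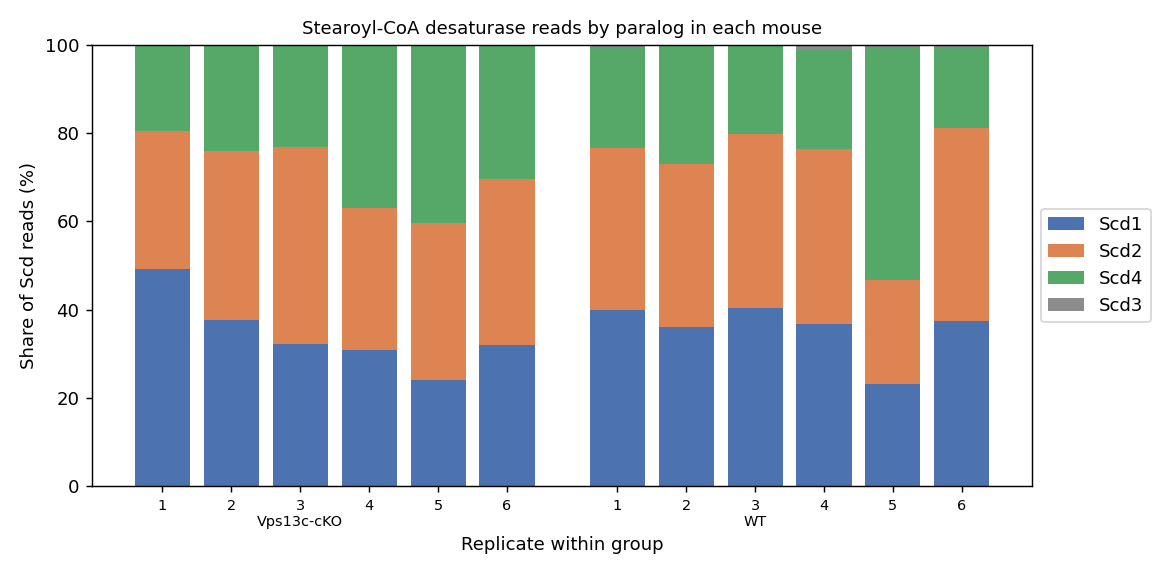
Share of stearoyl-CoA desaturase reads (y axis, percent of the reads of Scd1, Scd2, Scd3 and Scd4) in each mouse, Vps13c-cKO left and WT right, by replicate number. Scd1 takes 49.2% in Vps13c-cKO replicate 1 and Scd4 takes 52.7% in WT replicate 5, and Scd3 is hardly visible.

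To compare levels between genes, CPM were divided by the exon length in kilobases. Me1 was the most abundant of the 10, with 42.1 ± 2.52 CPM per kb in Vps13c-cKO and 41.7 ± 1.99 in WT (SD, n = 6 each). Thrsp came next with 22.4 ± 2.46 CPM per kb in Vps13c-cKO and 8.68 ± 1.86 in WT, followed by Acly with 7.73 ± 0.508 in Vps13c-cKO and 7.36 ± 0.602 in WT. In WT ventricles Thrsp at 5.80 to 10.9 CPM per kb overlapped Acly at 6.35 to 8.11. In Vps13c-cKO ventricles Thrsp at 19.2 to 25.8 CPM per kb lay above Acly at 7.18 to 8.60 in every mouse. The 3 desaturases followed at 4.61 to 5.23 CPM per kb on average in Vps13c-cKO and 3.57 to 4.17 in WT, overlapping one another, and Srebf1 averaged 3.25 in Vps13c-cKO and 3.39 in WT. The WT mean of Scd4, 4.17 CPM per kb, rested on replicate 5, and its WT median of 3.23 lay within the range of Srebf1, 2.88 to 3.97. Fasn averaged 2.37 CPM per kb in Vps13c-cKO and 1.69 in WT, Acaca 0.788 in Vps13c-cKO and 0.776 in WT, and Elovl6 0.246 in Vps13c-cKO and 0.188 in WT.

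Within groups Thrsp and Fasn were little correlated from mouse to mouse. After each group's mean was subtracted, their log2 CPM had a Pearson r of 0.14 and a Spearman rho of 0.03 over the 12 mice. Among the 11275 genes whose mean log2 CPM reached 1, those most like Thrsp by Pearson r were Dusp1 at 0.94, Tead1 at 0.91, Ccl6 and 0610009B22Rik at 0.90 each and Myoz2 at 0.88. Those most like Fasn were 6430571L13Rik and Tk1 at 0.90 each, Ss18 at 0.87, Zfp11 at 0.86 and Slfn5 at 0.85. No lipogenic gene was in either list, though Elovl6 lay below that level and was not compared. These are the highest of many values over 12 mice that share a tissue and a count table, and describe them only.

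**Figure D4:**
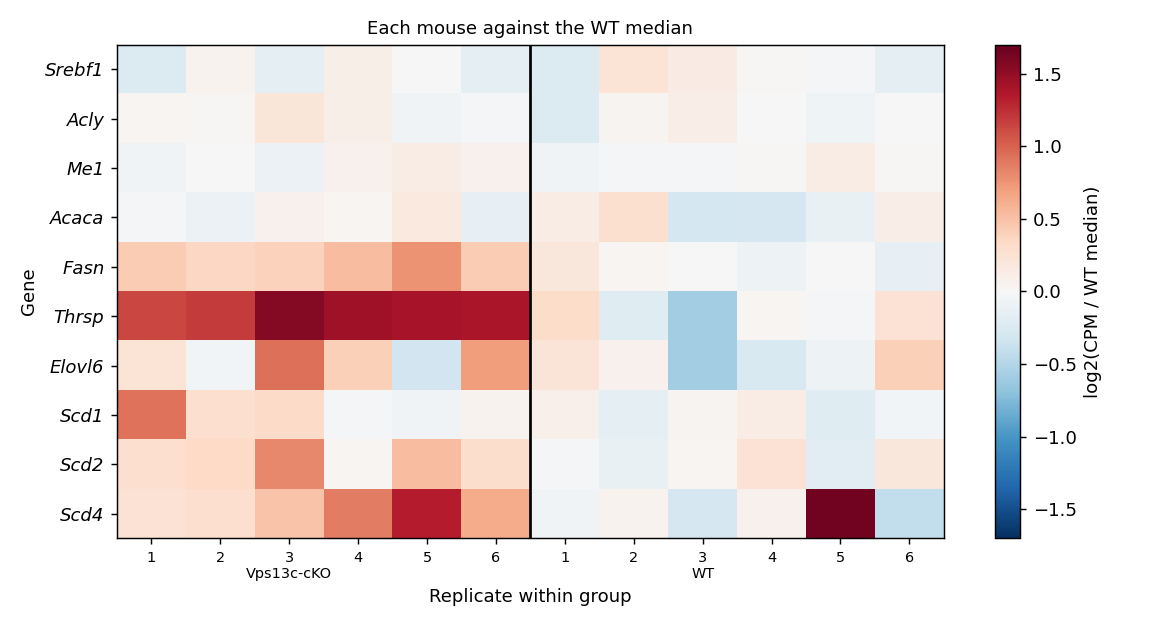
Log2 of the CPM of each lipogenic gene (y axis) in each mouse (x axis, Vps13c-cKO left, WT right) over the WT median; red is above and blue below. Thrsp and Fasn are red across the 6 Vps13c-cKO mice, while Scd1 in Vps13c-cKO replicate 1 and Scd4 in WT replicate 5 stand out as single mice.

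Insig1 was the gene that rose among 16 regulators that process or partner SREBP, all of them tested. It encodes a membrane protein that holds SREBP in the endoplasmic reticulum and is itself an SREBP target. Its level was 21.2, 25.1 and 30.3 CPM in Vps13c-cKO ventricles and 17.8, 19.7 and 21.1 CPM in WT ventricles, without overlap. The log2 fold change was 0.38 ± 0.08 (SE, adjusted p = 0.00450, edgeR). Lpin1, a phosphatidate phosphatase gene whose product also restrains SREBP in mouse liver, fell by 0.27 ± 0.06 (adjusted p = 0.00586). The list had 1 gene higher and 1 lower (6.25% each), with a median of 0.03. These shares were close to the 5.65% and 5.10% of all genes tested. The remaining head regulators did not pass: Srebf2 had a log2 fold change of 0.06 ± 0.06, the SREBP escort gene Scap 0.10 ± 0.07, Insig2 0.02 ± 0.04, the liver X receptor gene Nr1h3 0.07 ± 0.10 and Mlxipl, which encodes ChREBP, 0.11 ± 0.07.

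The other genes of fatty acid synthesis, elongation and desaturation had 1 of 21 tested genes higher and 2 lower, of 24 listed, with a median of 0.05. That is 4.76% higher and 9.52% lower, beside 5.65% and 5.10% of all genes tested. Fads3, a desaturase gene, rose by 0.18 ± 0.05 (adjusted p = 0.0131, edgeR). Tecr, which encodes the reductase of the last elongation step, fell by 0.21 ± 0.04 (adjusted p = 0.000600). Acacb, which encodes the mitochondrial acetyl-CoA carboxylase abundant in heart, fell by 0.15 ± 0.04 (adjusted p = 0.0403), a call lost in 8 of the 12 fits that each left out 1 library. Mid1ip1, the closest relative of Thrsp and an activator of acetyl-CoA carboxylase, had a log2 fold change of 0.04 ± 0.08 (adjusted p = 0.841), and its sign turned without Vps13c-cKO replicate 5 or WT replicate 1.

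A list of 14 genes linked to NADPH supply, not all of them established sources, had 2 higher and 3 lower, with a median of -0.03. The shares were 14.3% and 21.4%, beside 5.65% and 5.10% of all genes tested. The mitochondrial enzymes Me3 and Idh2, both on chromosome 7, fell by 0.42 ± 0.05 (adjusted p = 2.72e-06, edgeR) and 0.32 ± 0.04 (adjusted p = 4.66e-05). Me2, a mitochondrial malic enzyme gene, rose by 0.32 ± 0.08 (adjusted p = 0.00877) and Mthfd2, of mitochondrial folate metabolism, by 0.72 ± 0.21 (adjusted p = 0.0266). Mthfd2 was low, averaging 3.11 CPM in Vps13c-cKO and 1.89 CPM in WT. H6pd, the hexose-6-phosphate dehydrogenase gene of the endoplasmic reticulum, fell by 0.19 ± 0.06 (adjusted p = 0.0421). Of the 12 fits that each left out 1 library, 8 lost the H6pd call and 3 the Mthfd2 call, those without Vps13c-cKO replicate 3, WT replicate 3 or WT replicate 5.

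Cholesterol synthesis, which SREBP2 drives, had 0 of 20 tested genes called by edgeR, DESeq2 or limma-voom, with a median of 0.03. With edgeR 10.7% of all genes tested were called. At an unadjusted p under 0.05, 2 were higher and 2 lower with edgeR, 0 higher and 2 lower with DESeq2, and 1 higher and 2 lower with limma-voom. Without WT replicate 6, 1 gene of the list was called lower.

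Thyroid hormone is the classical inducer of Thrsp, and a list of its receptors, transporters, coregulators and cardiac targets had 3 of 22 tested genes higher and 4 lower, of 24 listed, with a median of -0.06. These counts are 13.6% and 18.2%, beside 5.65% and 5.10% of all genes tested. Thra, the main receptor gene of heart, fell by 0.26 ± 0.06 (adjusted p = 0.00361, edgeR), though its exons overlap those of Nr1d1 on the opposite strand, and Thrb did not pass (0.05 ± 0.07, adjusted p = 0.749). Atp2a2, the calcium pump gene of the sarcoplasmic reticulum that thyroid hormone raises, fell by 0.20 ± 0.03 (adjusted p = 0.000460). The glucose transporter gene Slc2a4 fell by 0.22 ± 0.04 (adjusted p = 0.00103) and the retinoid X receptor gene Rxrg by 0.27 ± 0.05 (adjusted p = 0.00205). The pacemaker channel gene Hcn2 rose by 0.31 ± 0.09 (adjusted p = 0.0218), and the corepressor gene Hr, a thyroid hormone target in brain, by 0.38 ± 0.11 (adjusted p = 0.0325). The Hcn2 call was lost in 5 of the 12 leave-one-out fits, and the count of higher genes on the list was 0 without Vps13c-cKO replicate 4 or WT replicate 6.

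PPAR targets that fasting induces had 1 of 15 tested genes higher (6.67%) and 5 lower (33.3%), of 18 listed, with a median of -0.19. Over all genes tested the shares were 5.65% and 5.10%. Acot1, a cytosolic thioesterase gene with close copies, averaged 6.58 ± 1.33 CPM in Vps13c-cKO ventricles and 11.9 ± 2.36 CPM in WT ventricles (SD, n = 6 each) and fell by 0.86 ± 0.13 (adjusted p = 0.000170, edgeR). Angptl4, an inhibitor of lipoprotein lipase, fell by 0.59 ± 0.12 (adjusted p = 0.00246). The beta-oxidation gene Acadm fell by 0.18 ± 0.03, the lipid droplet gene Plin5 by 0.27 ± 0.07 and the carnitine carrier gene Slc25a20 by 0.15 ± 0.04, whose call was lost in 4 of the 12 leave-one-out fits. Without WT replicate 1 the list had 8 genes lower. Plin2, a lipid droplet coat gene, rose by 0.26 ± 0.06 (adjusted p = 0.00993).

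Core clock genes are given because lipogenic genes cycle over the day and the sources used here give no hour of collection. Of 19 tested, 2 were higher (10.5%) and 4 lower (21.1%), with a median of 0.07, beside 5.65% and 5.10% of all genes tested. Per2 rose by 0.56 ± 0.14 (adjusted p = 0.0114, edgeR) and Ciart by 0.76 ± 0.21 (adjusted p = 0.0191). Arntl, on chromosome 7, fell by 0.84 ± 0.18 (adjusted p = 0.00343), Clock by 0.25 ± 0.05, Nr1d1 by 0.29 ± 0.08 and Nfil3 by 0.42 ± 0.11. WT mice spread widely for Arntl, from 7.13 to 17.0 CPM, against 5.74 to 8.12 CPM in Vps13c-cKO. Thra overlaps 8.55% of the Nr1d1 exon bases on the opposite strand. The Ciart call was lost without Vps13c-cKO replicate 5, and 5 clock genes were higher without WT replicate 3. Their part in the Thrsp and Fasn values was not tested.

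**Figure D5:**
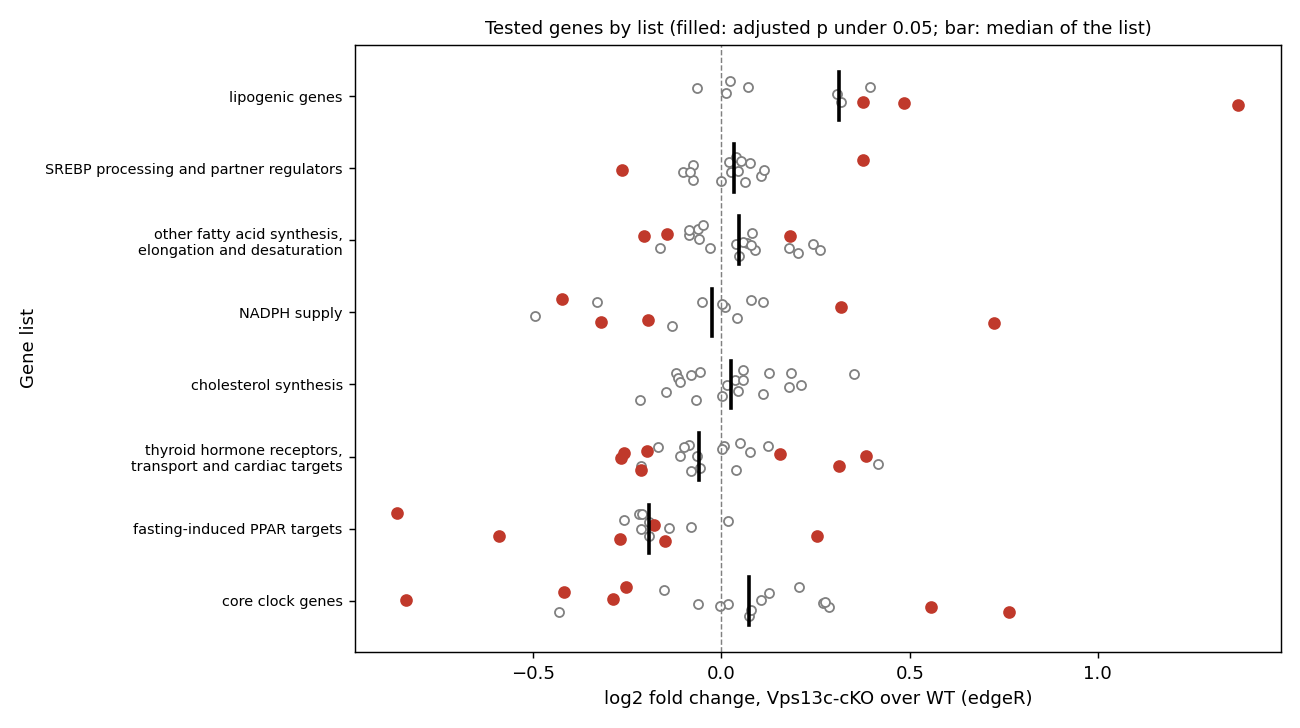
Log2 fold changes (Vps13c-cKO over WT, x axis) of the tested genes of the 10 lipogenic genes and 7 pathway lists (y axis), one circle per gene, filled for an adjusted p under 0.05, with a bar at the median. The lipogenic genes have a median of 0.31 with Thrsp at 1.37, and the fasting-induced PPAR targets have a median of -0.19.

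Markers of cell types that make fat were examined beside these results. The 8 defining adipocyte markers, Adipoq and Plin1 among them, summed to 0.149 to 1.27 CPM in Vps13c-cKO and 0.0723 to 1.08 CPM in WT, from 1 to 16 reads per library, and 0 of the 8 had enough counts to be tested. Defining adipocyte transcripts were near 0 in both groups, with 69 reads over all Vps13c-cKO libraries and 47 over all WT libraries. The part of fat cells in the Fasn and Thrsp values was not tested. The wider list of 18 adipocyte genes, which heart muscle shares in part, summed to 7669 to 8399 CPM in Vps13c-cKO and 8999 to 9371 CPM in WT, mostly Lpl, which fell by 0.21 ± 0.03 (edgeR). Of its 8 tested genes, 1 was higher, Cebpa (0.51 ± 0.13), and 3 lower, Lpl, Pnpla2 and Plin4, of which the last lost its call in 7 of the 12 leave-one-out fits and Pnpla2 in 2, those without Vps13c-cKO replicate 1 or WT replicate 2. Brown adipocyte markers had 1 of 6 tested genes higher, Cidea (0.23 ± 0.07, lost in 8 such fits), with Zic1 and Lhx8 at 0 reads in every library.

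Other cell markers differed between the groups too. Over all marker lists together 31.6% of tested genes were higher and 10.1% lower, beside 5.65% and 5.10% of all genes tested. Fibroblast markers had 11 of 15 higher, led by Col1a2 (0.34 ± 0.04), Fbln2 (0.36 ± 0.05), Col1a1 (0.38 ± 0.05) and Lum (0.33 ± 0.05), and summed to 2482 to 2742 CPM in Vps13c-cKO and 2160 to 2399 CPM in WT. Macrophage markers had 4 of 13 higher, Lyz2, C1qc, C1qb and C1qa, at 0.27 to 0.37, and summed to 362 to 422 CPM in Vps13c-cKO and 291 to 395 CPM in WT. Of 14 skeletal muscle markers 8 were tested and 6 were higher, led by Atp2a1 (5.78 ± 0.21), Tnni2 (3.13 ± 0.19), Mylpf (3.22 ± 0.23) and Ryr1 (3.72 ± 0.29). Of the 6 that rose, 5, those 4 and Tnnt3, lie on chromosome 7, while Casq1 lies on chromosome 1. Ckm did not pass (0.04 ± 0.04), and the lowest tested value was -0.14. Another 6 markers had too few counts to be tested. Among them, Actn3 had 12 reads over all Vps13c-cKO libraries and 11 over all WT libraries. Tnnc2 had 0 reads in every library, but 74.0% of its exon bases overlap Ube2c on the opposite strand, where reads cannot be assigned without strand. Endothelial markers had 2 of 13 lower, Cav1 and Cldn5, Schwann cell markers 1 of 6 higher, Pmp22, and cardiomyocyte markers 1 of 10 higher, Mybpc3, and 3 lower, Tnni3, Myl2 and Tnnt2. In bulk tissue, fewer cells of a type and less RNA per cell cannot be told apart, and the part of these cell types in the lipogenic values was not tested.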

How the data were processed

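Poly-A RNA of 12 ventricles was sequenced after PCR amplification, per the labels' protocols, which mention no molecular identifiers, so counts are reads. The authors deposited raw read counts for each gene in each mouse. Tools named in the submitters' processing notes are HISAT2 2.1.0, HTSeq 0.9.1 and fastp 0.22.0, with the build GRCm39. The sources used here do not give the annotation release, the handling of reads that match several genes or the strand setting. Group and replicate number came from the sample titles.

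Genes were filtered with filterByExpr, which left 12384 holding 99.9% of the counts. After TMM scaling they were tested two-sided with edgeR 4.0.16 (quasi-likelihood, R 4.3.3), p-values were adjusted by Benjamini-Hochberg over all of them, and a gene was called under 0.05. Log2 fold changes are Vps13c-cKO over WT with their standard errors. The biological coefficient of variation was 0.0661. Other settings tried were the replicate number as a block, leaving out each sample, no filter, at least 5 CPM on average, size factors of DESeq2, upper-quartile scaling, and the tests of DESeq2 1.42.0 and limma-voom (limma 3.58.1).

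The 10 genes and the lists were chosen with earlier results of these data known. Named genes are the 10 members, up to 6 genes past the threshold with the smallest p in each pathway list, head regulators whatever their values, up to 4 such genes in each marker list, the tested neighbours of Thrsp, Fasn and Scd2, the 5 genes most like Thrsp and like Fasn, and Vps13c. Some genes that this rule takes are not reported here. Irs2, Pdk4, Alb, Hr, Tnnt3, Casq1, Actn3 and Ckm were named after their values were seen. Gene names, chromosomes, exon lengths, gene order and shared 50-base stretches came from GENCODE M21 (GRCm38), another build than that of the counts. Promoter windows came from RefSeq on GRCm38.p6.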

Additional observations from a re-analysis of the deposited data

Results flagged for a closer look

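In 8 of 162 groups of 6 mice checked (4.94%), 1 mouse lay far from the other 5 by Dixon's criterion. Chance meets it in about 1 group in 20. The groups checked share mice, so that rate does not say how many of these flags arose by chance. In Vps13c-cKO, Fasn was highest in replicate 5 at 31.4 CPM, with the next mouse at 26.5 CPM. Scd1 reached 36.6 CPM in Vps13c-cKO replicate 1, with the next at 24.2 CPM, and the summed hepatocyte markers were highest in the same library at 377 CPM, with the next at 3.20 CPM. In WT, Scd4 was highest in replicate 5 at 37.9 CPM, with the next at 12.8 CPM, and Plin2 was highest in the same mouse at 62.8 CPM, with the next at 52.0 CPM. Fads3 was lowest in WT replicate 3 at 49.8 CPM, with the next at 54.0 CPM. Idh2 was highest in WT replicate 2 at 1353 CPM, with the next at 1237 CPM. Mid1ip1 was lowest in WT replicate 1 at 28.5 CPM, with the next at 39.6 CPM.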

How the results depend on the processing

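Under the 7 alternatives that kept all mice, each of the 10 lipogenic genes kept its direction and its side of the threshold, with log2 fold changes of 1.37 to 1.40 for Thrsp, 0.48 to 0.49 for Fasn and 0.36 to 0.38 for Scd2; Elovl6 has no value at a minimum mean of 5 CPM. With the replicate number as a block, Thrsp had 1.38, Fasn 0.48 (adjusted p = 0.000291) and Scd2 0.36 (adjusted p = 0.0273), and 687 genes were called higher and 625 lower, beside 700 and 631 without the block. Same-numbered mice had correlations of -0.0396 to 0.0618, and 1 of 6 was best matched by its own number, so the numbers were not taken as pairs. Leaving out each mouse in turn gave 1.28 to 1.45 for Thrsp, 0.42 to 0.52 for Fasn, 0.27 to 0.44 for Scd2, 0.15 to 0.38 for Scd1, 0.13 to 0.80 for Scd4, 0.25 to 0.50 for Elovl6, 0.030 to 0.098 for Acly, -0.11 to -0.016 for Srebf1, -0.028 to 0.087 for Acaca and -0.011 to 0.038 for Me1, so that Acaca turned sign in 4 fits and Me1 in 2. Mid1ip1 ran from -0.041 to 0.084 and turned sign in 2. Between 2 and 4 of the 10 genes were then called higher. The Acacb and Mthfd2 calls were also lost under the block and the Ciart and Plin4 calls by DESeq2; without a filter on low counts 6 hepatocyte markers were called higher, beside 0 with it, and with at least 5 CPM 2 skeletal muscle markers, beside 6. The block gave 4 clock genes higher, beside 2, and 1 gene of the NADPH list, beside 2. The cause of these shifts was not tested. Elovl6 was counted from 11 to 33 reads per library, and its wide interval holds both counting error and the spread between mice.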
